A study of Bos taurus with 12 samples.

Results

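The comparison set endometrial biopsies with very low progesterone against biopsies with low progesterone, both from day 4 of the estrous cycle. Its members were the 3 libraries labelled very low (below 0.25 ng/ml) and the 3 labelled low (below 1.4, a bound the labels give in mg/dl where the other classes have ng/ml), so 6 of the 12 libraries of the series. The remaining 6 libraries, 3 high (above 2.5 ng/ml) and 3 very high (above 20 ng/ml), entered the model for the spread between replicates and are given as levels where they help to place a gene. All samples were biopsies of endometrium, which lines the uterus, taken from pastured dairy cattle (Bos taurus), and messenger RNA was sequenced from each. Breed, age and treatment are not in the labels. Nothing states that replicates of a class came from separate animals, so p-values describe only how these samples vary, which may be technical. That spread was estimated over all 12 libraries, and the high and very high classes varied less than the compared classes. The titles of the very low samples begin with ANE and those of the low samples with LPP4, and the sources used here do not explain either code or say whether the classes differ in more than progesterone.

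In the early luteal phase the corpus luteum begins to secrete progesterone, which acts on the uterine lining through its nuclear receptor PGR, in glands, surface epithelium and stroma. Over days, progesterone changes what the glands secrete and lowers its own receptor and that for estradiol in the epithelium. The oxytocin receptor OXTR is kept low under progesterone in ruminants, and its return allows oxytocin to release prostaglandin F2α and end the luteal phase. A biopsy holds surface and glandular epithelium, stroma, vessels and leukocytes, and it can reach the smooth muscle of the myometrium below. In such bulk samples fewer cells of a type and less RNA per cell cannot be told apart.

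No gene passed the threshold between the classes. Of 10959 tested genes 0 (0%) had an adjusted p under 0.05 (edgeR quasi-likelihood test, Benjamini-Hochberg), and the smallest adjusted p was 0.130. At an unadjusted p under 0.05 there were 697 genes with higher values in the very low class (6.36% of tested genes) and 572 with lower values (5.22%). With only the 6 compared libraries fitted, 450 of 10624 tested genes reached that level, against 1269 of 10959 in the main fit. A library's level of a gene is given in CPM, its counts scaled to the library's TMM-adjusted size. The CPM of the classes did not overlap in 1067 genes (9.74%): in 507 (4.63%) all 3 very low libraries lay above all 3 low libraries, and in 560 (5.11%) they lay below. The count depended on the tool: DESeq2 called 293 genes (2.67%), 131 higher (1.20%) and 162 lower (1.48%), whereas limma-voom called 0, with 1034 at an unadjusted p under 0.05. Of the 162 genes that were lower in DESeq2, 140 had no overlap between the classes, and in 124 the very low libraries lay below all 9 other libraries of the series. Of the 131 that were higher, 89 had no overlap, 46 lay above all 9 others, and in 41 very low replicate 1 alone was more than 4 times any of the other 5 libraries. Among all tested genes 346 (3.16%) lay below all 9 others and 200 (1.82%) above. DESeq2 picked its genes from the same libraries, so these counts describe them and are no separate support. The values below are therefore levels with their spread, and the words higher and lower refer to the libraries measured.

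**Figure D1:**
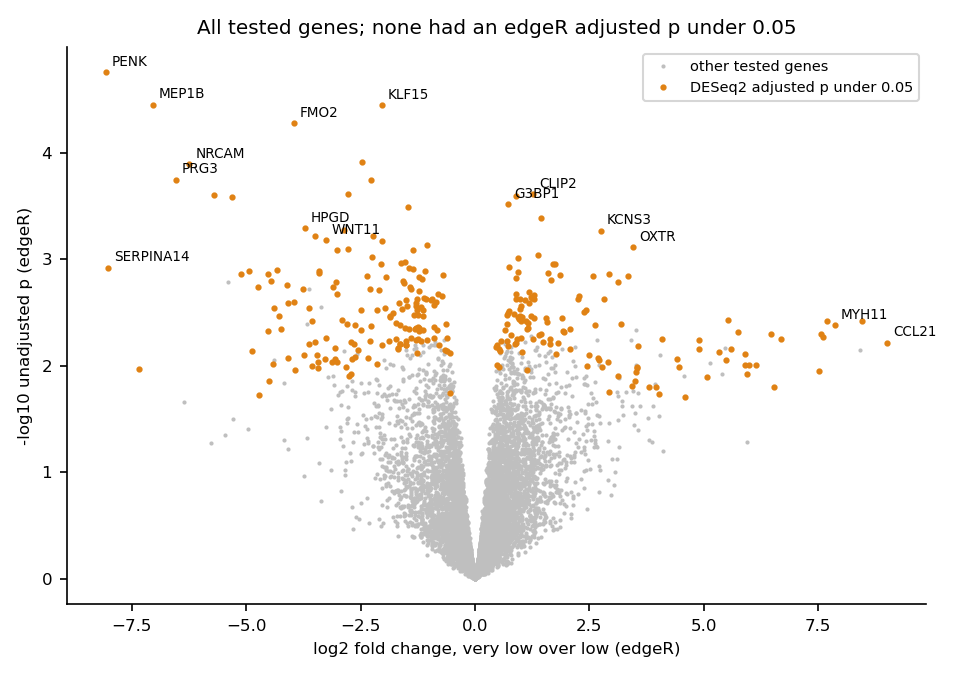
Each point is 1 of 10959 tested genes, with the edgeR log2 fold change of very low over low on the x axis and the -log10 of the unadjusted edgeR p on the y axis. Orange points are the 293 genes with a DESeq2 adjusted p under 0.05. PENK, at a log2 fold change of -8.07, stands at the upper left, and the smooth muscle gene MYH11, at 7.87, lies far right at a larger p.

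The 3 very low libraries differed widely from one another. The median standard deviation of a gene over 3 replicates was 0.58 on the log2 CPM scale in the very low class and 0.39 in the low class, against 0.25 in the high and 0.24 in the very high class (n = 3 libraries each, 10959 genes). As the fit shared its spread over all classes, p and SE may be too small for the very low and low libraries. Very low replicates 1 and 2 were the most distant pair, with a Spearman correlation over genes of 0.738, whereas very low replicate 3 had 0.914, 0.914 and 0.945 with the 3 low libraries. Total counts were 7769659, 3772564 and 7523103 in very low replicates 1, 2 and 3, against 7410026, 7036929 and 8096116 in low replicates 1, 2 and 3, so very low replicate 2 had the fewest reads. Of the 10959 genes, 27.2% had their highest CPM of the 6 libraries in very low replicate 1 and 25.9% in replicate 2, against 8.87% in replicate 3.

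Markers of cell types described how each very low library was made up. Each list was scored in a library by averaging log2 CPM over its tested members, and triplets of values follow replicates 1, 2 and 3 throughout. The smooth muscle score over 15 markers was 10.99, 4.48 and 6.06 in the very low libraries, against 4.77, 5.37 and 5.61 in the low libraries, and the other 6 libraries of the series ran from 8.96 to 10.19. Very low replicate 1 thus stood above every other library, and replicates 2 and 3 stood beside the low class. MYH11, the smooth muscle myosin heavy chain, had 1455, 2.07 and 3.12 CPM in the very low libraries, against 2.11, 1.92 and 2.17 CPM in the low libraries. The smooth muscle actin ACTA2 had 26594, 119 and 406 CPM in the 3 very low libraries and 109, 173 and 281 CPM in the 3 low libraries. Of the 15 smooth muscle markers 14 had their highest value of the 6 libraries in very low replicate 1, against 27.2% of all tested genes.

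Epithelial markers ran the other way. The score over 14 markers was 3.99, 8.74 and 7.56 in the very low libraries and 7.63, 8.03 and 6.95 in the low libraries, and all 14 markers had their lowest value of the 6 in very low replicate 1, while 11 had their highest in replicate 2. Of all tested genes 30.1% were lowest in very low replicate 1 and 25.9% highest in replicate 2. EPCAM, an adhesion molecule of epithelial cells, had 21.9, 584 and 242 CPM in the very low libraries, against 428, 380.1 and 276 CPM in the low libraries. CDH1, which encodes E-cadherin, had 8.31, 388 and 83.6 CPM in the 3 very low libraries and 48.5, 129.9 and 11.4 CPM in the 3 low libraries. Set against the tissue label, 5 of the 6 libraries carried these markers at 6.95 or more in score, and very low replicate 1 had the weakest epithelial signal. Markers of ciliated cells had scores of 1.76, 5.51 and 5.08 in the very low and 5.85, 6.72 and 4.03 in the low libraries. Of the 9 tested, 7 were lowest in very low replicate 1 and 7 highest in low replicate 2. The member DNAI1 went the other way, with 260, 51.6 and 59.8 CPM in the very low and 72.6, 70.4 and 80.9 CPM in the low libraries. FOXJ1, the transcription factor of motile cilia, had 0, 66.6 and 36 CPM in the very low libraries, against 45.6, 135 and 5.35 CPM in the low libraries. Glandular and secretory markers scored 3.13, 7.54 and 4.59 in the very low and 5.93, 6.72 and 7.29 in the low libraries.

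Neutrophil markers set very low replicate 2 apart, and other leukocyte markers did so less or not at all. The 5 tested neutrophil markers had scores of 2.06, 8.34 and 3.04 in the very low libraries, against 5.21, 6.29 and 4.56 in the low libraries, and each of the 5 was highest in very low replicate 2. S100A8, a calcium-binding protein of neutrophils, had 13.8, 502 and 11.7 CPM in the very low libraries, against 166, 84.2 and 118 CPM in the low libraries. Its partner S100A9 had 9.54, 512 and 17 CPM in the 3 very low libraries and 200.5, 82.5 and 39.7 CPM in the 3 low libraries. The other pair of very low libraries lay below all 3 low libraries in neutrophil score, so the ranges of the classes overlapped. Scores of macrophage and dendritic cell markers were 5.32, 6.0 and 4.89 in the very low and 5.10, 4.25 and 5.99 in the low libraries, with overlap. T and NK cell markers scored 3.70, 5.07 and 3.89 in the very low and 4.82, 3.49 and 4.69 in the low libraries. Among their defining genes, CD68, a macrophage protein, had 57.1, 123 and 68.9 CPM in the very low and 76.3, 47.7 and 133 CPM in the low libraries, and CD14, a receptor of monocytes, had 28.5, 199 and 26 CPM in the very low libraries, against 21.1, 33.1 and 43 CPM in the low libraries. The T cell receptor subunit CD3D had 15.9, 43.1 and 14.7 CPM in the 3 very low libraries and 36.2, 10.2 and 30.2 CPM in the 3 low libraries, and CD3E had 78.3, 123 and 43.7 CPM in the very low class, against 145, 48.2 and 109 CPM in the low class. Of these markers 2 of 8 for macrophages and dendritic cells and 6 of 16 for T and NK cells were highest in very low replicate 2, and 1 of 8 for B and plasma cells. The share over all tested genes was 25.9%. B and plasma cell markers scored 3.44, 5.78 and 4.23 in the very low and 6.06, 4.38 and 6.57 in the low libraries. MS4A1, which encodes CD20 of B cells, had 1.94, 22.2 and 4.81 CPM in the very low class, against 23.6, 10.6 and 30.5 CPM in the low class, so that low replicate 3 led.

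Stromal, endothelial and rarer cell types were also scored. Stromal fibroblast markers scored 10.67, 8.53 and 11.01 in the very low and 9.42, 9.63 and 11.07 in the low libraries, with overlap. Endothelial markers scored 3.60, 4.05 and 4.78 in the very low and 4.31, 4.55 and 5.25 in the low libraries, again with overlap. PDGFRA, a growth factor receptor of stromal cells, had 241, 76.4 and 206 CPM in the very low libraries, against 169.7, 152 and 445 CPM in the low libraries, and PDGFRB had 53.9, 39.2 and 113 CPM in the very low class, against 39.1, 62.6 and 52.5 CPM in the low class. PECAM1, an adhesion molecule of endothelium, had 32.2, 26.8 and 30 CPM in the 3 very low libraries and 23.5, 16.8 and 40.8 CPM in the 3 low libraries, and CDH5, the cadherin of that cell type, had 3.89, 8.52 and 13.8 CPM in the very low class, against 5.8, 9.47 and 7.09 CPM in the low class. Fewer than 5 markers were tested for mesothelium (4), mast cells and eosinophils (4), blood (3) and fat (3), and their median log2 fold changes were 1.28, -0.36, -0.75 and -0.33. Mesothelin MSLN, which surface epithelium also makes, had 49.1, 979 and 103 CPM in the very low libraries, against 123, 248 and 279 CPM in the low libraries, and UPK3B, a uroplakin of mesothelium, had 7.6, 23 and 5.59 CPM in the very low class, against 16.6, 11.4 and 7.24 CPM in the low class. The mast cell receptor KIT had 3.71, 20.7 and 23.5 CPM in the very low class, against 21.5, 22.5 and 17.2 CPM in the low class, and the mast cell protease CPA3 had 3.36, 1.03 and 20.5 CPM in the very low libraries, against 1.85, 3.2 and 23 CPM in the low libraries. Hemoglobin alpha HBA had 0.353, 0.516 and 0.26 CPM in the very low libraries, against 3.69, 4.22 and 1.16 CPM in the low libraries, and each very low library held 2 reads of it. HBA had a log2 fold change of -3.01 (SE 0.66, edgeR adjusted p = 0.275). Hemoglobin beta HBB, too low to be tested, had 0.53, 0.516 and 0.13 CPM in the very low libraries, against 0.527, 0.512 and 0.434 CPM in the low libraries, with overlap. The fat droplet protein PLIN1 had 5.83, 3.1 and 5.98 CPM in the 3 very low libraries and 1.85, 3.33 and 2.61 CPM in the 3 low libraries.

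**Figure D2:**
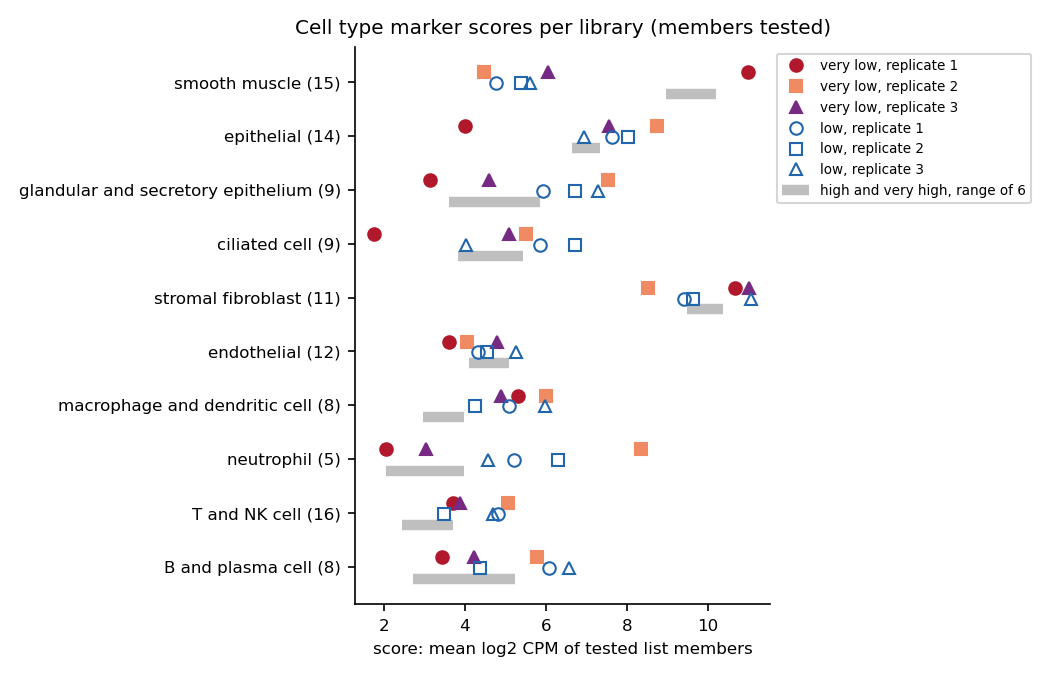
Scores of the 10 cell type lists with at least 5 tested markers, as mean log2 CPM on the x axis. Filled symbols are very low replicates 1 to 3, open blue symbols low replicates 1 to 3, and grey bars the range of the 6 high and very high libraries. Very low replicate 1 stands at 10.99 for smooth muscle and at 3.99 for epithelium, and very low replicate 2 at 8.34 for neutrophil markers.

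The 8 genes with the smallest p among those lower in the very low class were lower in all 3 very low libraries than in any low library. Some of them were near silent there. PENK, the gene of proenkephalin, from which enkephalin opioids are cut, had 1.06, 0.516 and 6.5 CPM in the very low libraries, against 512, 1511 and 291 CPM in the low libraries. For PENK edgeR gave a log2 fold change of -8.07 (SE 1.11, adjusted p = 0.13). MEP1B, a subunit of meprin, a secreted and membrane metalloprotease, had 0, 0.516 and 1.04 CPM in the 3 very low libraries and 153, 43.6 and 32 CPM in the 3 low libraries. In MEP1B the log2 fold change was -7.05 (SE 1.04, edgeR adjusted p = 0.13). These 2 genes did not overlap between the classes, and the very low libraries also lay below all 6 high and very high libraries. The cell adhesion molecule NRCAM had 0, 0.258 and 2.73 CPM in the very low libraries, against 129, 120.4 and 14.6 CPM in the low libraries (log2 fold change -6.25, SE 1.07, edgeR adjusted p = 0.218), so that low replicate 3 lay between the very low libraries and the other pair of low ones. FMO2, a flavin-containing monooxygenase, had 0.177, 1.29 and 1.69 CPM in the very low class, against 20.3, 18.7 and 11.7 CPM in the low class (log2 fold change -3.96, SE 0.61, edgeR adjusted p = 0.146). PRG3, a proteoglycan of eosinophil granules in other species, had 0, 0.516 and 0.26 CPM in the 3 very low libraries and 33.7, 11.9 and 25.3 CPM in the 3 low libraries (log2 fold change -6.54, SE 1.17, edgeR adjusted p = 0.218), on only 4 reads in the very low class.

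KLF15, a transcription factor that glucocorticoids and progestins induce, had 6.01, 11.4 and 7.41 CPM in the very low libraries, against 42.2, 37.4 and 21.3 CPM in the low libraries. KLF15 had a log2 fold change of -2.03 (SE 0.30, edgeR adjusted p = 0.13). PPP1R1B, a phosphatase inhibitor also known as DARPP-32, had 8.13, 5.16 and 14.6 CPM in the 3 very low libraries and 58.1, 70.4 and 27.9 CPM in the 3 low libraries. For PPP1R1B edgeR gave a log2 fold change of -2.47 (SE 0.42, adjusted p = 0.218). The ectonucleotidase-family gene ENPP4 had 35.3, 50.1 and 49.3 CPM in the very low class, against 299, 259 and 93.1 CPM in the low class. In ENPP4 the log2 fold change was -2.27 (SE 0.41, edgeR adjusted p = 0.218). In all 8 genes the 3 very low libraries lay below the lowest of the 9 other libraries. That position was held by 346 of the tested genes (3.16%), beside 560 (5.11%) that lay below the 3 low libraries. The 8 genes were picked for a small p in these same libraries, so their position was partly given by that choice. In PENK and KLF15 the mean of the very low class lay below those of all 3 other classes. PENK averaged 2.69 ± 3.31 CPM, 772 ± 649.9 CPM, 828 ± 62.2 CPM and 3208 ± 1813 CPM across the very low, low, high and very high classes (SD, n = 3 each). KLF15 averaged 8.26 ± 2.77 CPM, 33.6 ± 10.9 CPM, 39.7 ± 3.84 CPM and 44.8 ± 3.05 CPM in the same order (SD, n = 3 each). Very low replicate 2 had the highest epithelial score of the 6 libraries and 0.516 CPM of PENK, 0.516 of MEP1B and 0.258 of NRCAM. Without very low replicate 1 the log2 fold changes of PENK, MEP1B and KLF15 were -7.66, -6.46 and -1.86.

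With the smooth muscle score of each library as a covariate the log2 fold changes of PENK, MEP1B and KLF15 were -7.66, -6.14 and -1.82. With the epithelial score added they were -8.10, -6.21 and -2.01, and for the 8 genes together each kept its sign in both fits. Leaving out a single library brought some of these genes past the threshold. Without very low replicate 3 edgeR called 16 genes and without low replicate 3 it called 13, all lower in the very low class. The 3 genes called in both fits were PENK, NRCAM and PPP1R1B, and MEP1B, KLF15, ENPP4 and the fatty acid transport protein SLC27A6 were called in the second. Among those called in the first were the prostaglandin-degrading enzyme HPGD, the activin-binding protein FST, the Nodal co-receptor TDGF1 and the hedgehog ligand IHH. In them the left-out very low replicate 3 had the highest level of its class, at 69.8, 9.75, 271 and 64.9 CPM. It was the very low library most like the low class, so leaving it out widened the contrast in these genes. Low replicate 3 likewise had the lowest level of its class in PENK, NRCAM, PPP1R1B, MEP1B, KLF15 and ENPP4. In the fits that left out any other single library of the 12 there were 0 calls.

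Of the 8 genes with the smallest p among those higher in the very low class, the oxytocin receptor OXTR had the largest fold. It had 56.2, 209 and 167 CPM in the very low libraries, against 6.85, 11.1 and 21.7 CPM in the low libraries (log2 fold change 3.45, SE 0.74, edgeR adjusted p = 0.275). Very low replicates 2 and 3 were highest, and very low replicate 1 also lay above all 9 other libraries (2.52 to 37.8 CPM). KCNS3, a modulatory subunit of voltage-gated potassium channels, had 10.3, 4.39 and 3.77 CPM in the 3 very low libraries and 0.923, 0.768 and 1.01 CPM in the 3 low libraries. KCNS3 had a log2 fold change of 2.75 (SE 0.57, edgeR adjusted p = 0.275). CALU, a calcium-binding protein of the endoplasmic reticulum, had 139, 105 and 76.7 CPM in the very low libraries, against 29.4, 57.4 and 29.7 CPM in the low libraries (log2 fold change 1.46, SE 0.29, edgeR adjusted p = 0.275), and LRRC8A, a subunit of the volume-regulated anion channel, had 27.6, 58.1 and 41.2 CPM in the very low class, against 14.6, 21.4 and 12.4 CPM in the low class. For LRRC8A edgeR gave a log2 fold change of 1.39 (SE 0.31, adjusted p = 0.275).

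The other 4 had smaller log2 fold changes. G3BP1, a core protein of stress granules, had 123, 104 and 108 CPM in the very low libraries, against 68.1, 67.2 and 68 CPM in the low libraries. In G3BP1 the log2 fold change was 0.72 (SE 0.14, edgeR adjusted p = 0.237). The membrane protein TMEM98 had 116, 105 and 89.2 CPM in the 3 very low libraries and 59, 52.3 and 55.6 CPM in the 3 low libraries (log2 fold change 0.90, SE 0.17, edgeR adjusted p = 0.218). ABCE1, which recycles ribosomes, had 56, 47.5 and 37.7 CPM in the very low class, against 25.4, 23.9 and 24.6 CPM in the low class (log2 fold change 0.93, SE 0.21, edgeR adjusted p = 0.275), and its locus overlaps the tested gene ANAPC10. CLIP2, a microtubule-binding linker protein, had 24.7, 27.4 and 24.8 CPM in the very low libraries, against 9.49, 11.6 and 10.7 CPM in the low libraries. CLIP2 had a log2 fold change of 1.27 (SE 0.24, edgeR adjusted p = 0.218). OXTR, TMEM98, G3BP1, CALU and ABCE1 lay above all 9 other libraries. That position was held by 200 of the tested genes (1.82%), beside 507 (4.63%) that lay above the 3 low libraries. These genes too were picked for a small p in the same libraries. CLIP2, KCNS3 and LRRC8A overlapped the high and very high libraries, and in CLIP2 and KCNS3 the 3 low libraries lay below all 9 others. CLIP2 averaged 25.6 ± 1.49 CPM, 10.6 ± 1.08 CPM, 22.4 ± 2.25 CPM and 20.1 ± 5.14 CPM across the very low, low, high and very high classes (SD, n = 3 each).

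**Figure D3:**
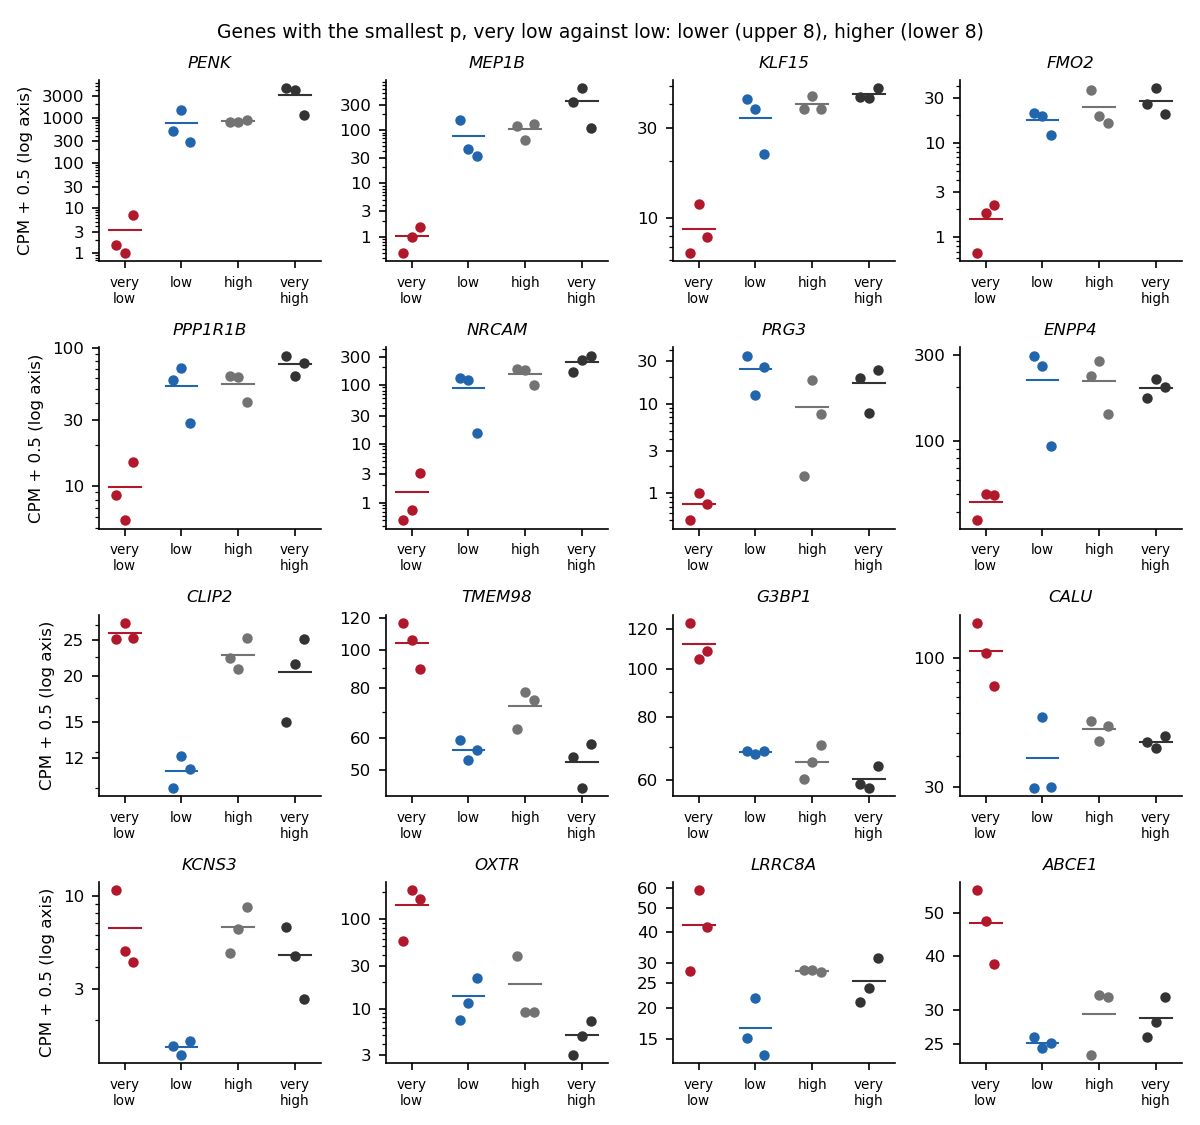
CPM plus 0.5 on log axes for the 8 genes with the smallest p in each direction, lower in the very low class in the upper 2 rows and higher in the lower 2 rows. Points are libraries, bars are class means, and classes run from very low to very high. In the upper 8 genes the 3 red very low points lie under all others, and in OXTR they lie at 56.2 to 209 CPM, above all others.

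No steroid receptor was among the 8 genes with the smallest p in either direction. PGR, the progesterone receptor, had 62.2, 34.1 and 70.3 CPM in the very low libraries, against 27.7, 33 and 36.3 CPM in the low libraries (log2 fold change 0.78, SE 0.27, edgeR adjusted p = 0.346), and very low replicate 2 lay inside the low range. The gene of estrogen receptor alpha, ESR1, had 106, 151 and 40.7 CPM in the 3 very low libraries and 31.1, 84.4 and 17.5 CPM in the 3 low libraries (log2 fold change 1.16, SE 0.59, edgeR adjusted p = 0.474), with overlapping classes. FKBP5, which binds HSP90 in receptor complexes and is induced by glucocorticoids and progestins, had 85.7, 98.1 and 70.1 CPM in the very low class, against 184, 182 and 99.6 CPM in the low class, without overlap. For FKBP5 edgeR gave a log2 fold change of -0.87 (SE 0.29, adjusted p = 0.326). Among 15 tested members of the steroid receptor list 1 was higher (PGR) and 1 lower (FKBP5) at an unadjusted p under 0.05, and the median log2 fold change was 0.09, against 0.06 over all tested genes. The counts of each list below are read against 6.36% of tested genes higher and 5.22% lower at that level, and no list member had an edgeR adjusted p under 0.05.

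Genes grouped as progesterone-associated had more members lower than higher in the very low class. The list was put together with earlier results of these data known, so its direction is no independent evidence. Of 25 tested members, 8 were lower and 1 higher at an unadjusted p under 0.05, 6 lay below the low class without overlap and 1 above, and the median log2 fold change was -1.01. That median was -0.32 without low replicate 3 and -1.70 without very low replicate 2. The score was 2.79, 4.71 and 4.64 in the very low libraries and 5.91, 5.96 and 5.87 in the low libraries, without overlap. SERPINA14, the uterine serpin or uterine milk protein secreted by glands, had 0, 0 and 1.3 CPM in the very low libraries, against 27.9, 4.48 and 396 CPM in the low libraries (log2 fold change -8.01, SE 1.84, edgeR adjusted p = 0.275), with low replicate 3 the highest of the low class. TDGF1, also called Cripto, had 4.07, 4.13 and 271 CPM in the 3 very low libraries and 2481, 2128 and 411 CPM in the 3 low libraries. In TDGF1 the log2 fold change was -4.16 (SE 1.43, edgeR adjusted p = 0.338). IHH, the epithelial ligand through which progesterone signals to stroma in the mouse uterus, had 0.353, 1.29 and 64.9 CPM in the very low class, against 312, 133 and 78.4 CPM in the low class (log2 fold change -2.95, SE 1.33, edgeR adjusted p = 0.43). In TDGF1 and IHH very low replicate 3 lay far above the other pair of very low libraries, though below the lowest low library. The aminopeptidase ANPEP had 23.5, 134 and 169 CPM in the very low libraries, against 549, 2021 and 167 CPM in the low libraries, with overlap (log2 fold change -3.07), and the granule protein CHGA had 4.24, 1.03 and 1.95 CPM in the very low class, against 6.46, 13.1 and 3.33 CPM in the low class (log2 fold change -1.63). Of the 25 members 16 had a negative and 9 a positive log2 fold change. The 1 higher member at an unadjusted p under 0.05 was MSTN, which encodes myostatin. It had 9.01, 11.9 and 52.8 CPM in the 3 very low libraries and 2.77, 0.896 and 7.82 CPM in the 3 low libraries. MSTN had a log2 fold change of 2.69 (SE 0.83, edgeR adjusted p = 0.31).

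Of the 16 estrogen-associated genes 3 were higher and 1 lower at an unadjusted p under 0.05, with a median log2 fold change of 0.34 and a score difference of -0.03, which differ in sign. Besides OXTR and PGR the third was MYC, a growth regulator, with 318, 72 and 85.1 CPM in the very low class, against 32, 82.1 and 61.2 CPM in the low class. For MYC edgeR gave a log2 fold change of 1.44 (SE 0.54, adjusted p = 0.366). The classes overlapped in MYC, and its log2 fold change was 0.42 without very low replicate 1. PDZK1, a scaffold for membrane transporters that estrogen induces in breast cells, had 14, 13.9 and 92.8 CPM in the very low libraries, against 651, 847 and 137 CPM in the low libraries. In PDZK1 the log2 fold change was -3.75 (SE 0.92, edgeR adjusted p = 0.276). It lay in the opposite direction to OXTR in all 3 libraries, and the high and very high classes had 506 ± 258 CPM and 576 ± 235 CPM (SD, n = 3 each).

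In the pathway of prostaglandins and oxytocin a pair of enzymes was lower in the very low class and the oxytocin receptor higher. HPGD, which inactivates prostaglandins, had 6.72, 19.4 and 69.8 CPM in the very low libraries, against 619, 388 and 266 CPM in the low libraries (log2 fold change -3.72, SE 0.76, edgeR adjusted p = 0.275). AKR1B1, which makes prostaglandin F2α in bovine endometrium, had 101, 58.3 and 159 CPM in the 3 very low libraries and 764, 486 and 247 CPM in the 3 low libraries. AKR1B1 had a log2 fold change of -2.23 (SE 0.47, edgeR adjusted p = 0.275). Neither enzyme overlapped between the classes. The other end of the pathway held OXTR, above, and the prostaglandin E receptor PTGER3, which among the very low and low libraries was high in very low replicate 1 alone. PTGER3 had 249, 0 and 1.3 CPM in the very low class, against 1.05, 1.54 and 0.868 CPM in the low class (log2 fold change 6.15, and -0.58 without that library). It ran from 9.39 to 39.3 CPM in the high and from 7.21 to 22.2 CPM in the very high libraries. The cyclooxygenase PTGS2 had 2.3, 450.2 and 20.4 CPM in the very low libraries, against 167, 61.2 and 135 CPM in the low libraries, with overlap. Of the 16 tested members 2 were higher and 2 lower at an unadjusted p under 0.05, and the median log2 fold change was 0.12.

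Growth factors and their inhibitors had 6 higher and 4 lower of 32 tested members at an unadjusted p under 0.05, with 4 above and 5 below the low class without overlap. BMP4, a ligand of the TGF-beta superfamily, had 32.2, 15.5 and 41.6 CPM in the very low libraries, against 68.9, 117 and 89.6 CPM in the low libraries. For BMP4 edgeR gave a log2 fold change of -1.62 (SE 0.37, adjusted p = 0.275). FST, which binds and blocks activin, had 1.06, 0.516 and 9.75 CPM in the very low class, against 19.5, 45.2 and 25.2 CPM in the low class. In FST the log2 fold change was -2.91 (SE 0.79, edgeR adjusted p = 0.288). TGFB2, a transforming growth factor, lay the other way with 22.6, 52.9 and 33.5 CPM in the 3 very low libraries and 7.64, 12.5 and 12.9 CPM in the 3 low libraries (log2 fold change 1.72, SE 0.39, edgeR adjusted p = 0.275). In the fibroblast growth factor family the ligand FGF1 and the receptor FGFR2 differed in direction. FGF1 had 7.42, 13.2 and 25.1 CPM in the very low libraries, against 38.7, 69 and 44.1 CPM in the low libraries (log2 fold change -1.72). FGFR2 had 76.9, 148 and 142 CPM in the very low class, against 53.1, 60.8 and 25.6 CPM in the low class (log2 fold change 1.39). The high and very high classes averaged 119 and 111 CPM of FGFR2, and the low libraries lay below all others of the series. IGFBP2, which binds insulin-like growth factors, had 3.0, 3.61 and 89 CPM in the 3 very low libraries and 99.1, 89.9 and 552 CPM in the 3 low libraries (log2 fold change -2.94), with very low replicate 3 close to the low range. The median log2 fold change of this list was 0.24.

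WNT ligands and their secreted inhibitors had members in both directions. WNT11, a noncanonical WNT ligand of the uterus, had 3.0, 1.81 and 8.19 CPM in the very low libraries, against 68.4, 48.1 and 12.7 CPM in the low libraries. WNT11 had a log2 fold change of -3.26 (SE 0.69, edgeR adjusted p = 0.275). DKK1, a secreted WNT inhibitor, had 0.177, 0.774 and 2.21 CPM in the 3 very low libraries and 13.6, 13.2 and 65.1 CPM in the 3 low libraries (log2 fold change -4.75, SE 1.15, edgeR adjusted p = 0.276), and WNT2B had 4.77, 2.32 and 10.9 CPM in the very low class, against 21.6, 20.6 and 39.1 CPM in the low class. For WNT2B edgeR gave a log2 fold change of -2.14 (SE 0.56, adjusted p = 0.279). These 3 lay below the low class without overlap. WNT7A, a ligand of the uterine epithelium, lay above it, with 2.65, 20.4 and 37.8 CPM in the very low libraries, against 1.19, 2.56 and 1.45 CPM in the low libraries. In WNT7A the log2 fold change was 3.54 (SE 1.14, edgeR adjusted p = 0.316). The inhibitor SFRP2 had 3109, 60.7 and 135 CPM in the 3 very low libraries and 70.2, 82.1 and 47.5 CPM in the 3 low libraries, so its log2 fold change of 4.05 rested on very low replicate 1 and was 0.56 without it. Of 23 tested WNT and HOX regulators 2 were higher and 3 lower at an unadjusted p under 0.05, with a median of 0.36.

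Among matrix genes a pair of protease inhibitors was lower in all 3 very low libraries than in any low library. TIMP2, an inhibitor of matrix metalloproteinases, had 622, 655 and 434 CPM in the very low libraries, against 2139, 1054 and 1567 CPM in the low libraries (log2 fold change -1.48, SE 0.38, edgeR adjusted p = 0.279), and SERPINE2, an inhibitor of thrombin and plasminogen activators, had 32.2, 241 and 168 CPM in the very low class, against 349, 427 and 833 CPM in the low class (log2 fold change -1.87), neither with overlap. Of 21 matrix proteases and inhibitors 1 was higher and 2 lower at an unadjusted p under 0.05, with a median of -0.01. Of 18 collagens and basement membrane genes 1 was higher and 0 lower, with a median of 0.46. That gene was FBN1, the microfibril protein fibrillin, at 492, 138 and 203 CPM in the 3 very low libraries and 75.5, 102 and 157 CPM in the 3 low libraries (log2 fold change 1.32, SE 0.47, edgeR adjusted p = 0.347). Of these 18 genes 11 were highest in very low replicate 1 and 5 in replicate 3, against 27.2% and 8.87% of all tested genes. The score of the list was 9.70, 7.43 and 9.49 in the very low and 8.04, 8.56 and 9.39 in the low libraries, with overlap. The median was 0.08 without very low replicate 1. The microfibril-associated MFAP4 of the stromal list had 1498, 65 and 524 CPM in the very low class, against 144, 135 and 441 CPM in the low class (log2 fold change 1.54, SE 0.82, edgeR adjusted p = 0.496), again highest in replicate 1.

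Transporters and lipid genes had few members past an unadjusted p of 0.05. Of 24 glucose and amino acid transporters 0 were higher and 2 lower, with a median of 0.05. SLC38A7, a glutamine transporter, had 14.7, 23.5 and 25.5 CPM in the very low libraries, against 84.9, 62.9 and 31.8 CPM in the low libraries (log2 fold change -1.50, SE 0.38, edgeR adjusted p = 0.276), and SLC1A1, a glutamate transporter, had 1.06, 63.2 and 15.7 CPM in the very low class, against 243, 327 and 31.8 CPM in the low class (log2 fold change -2.93). Of 29 lipid and sterol genes 2 were higher and 0 lower, with a median of 0.07.

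**Figure D4:**
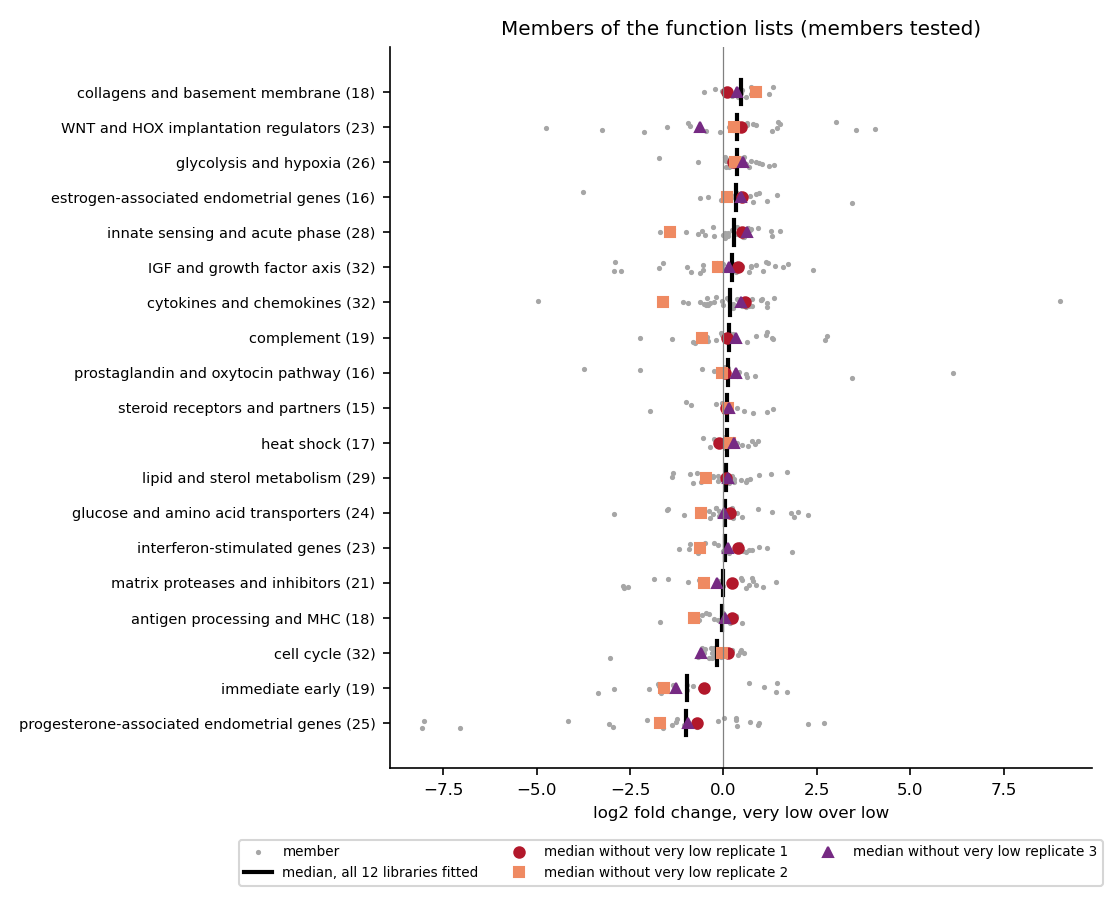
Log2 fold changes of very low over low (x axis) for the tested members of 19 function lists. Grey points are genes, black ticks medians in the fit of 12 libraries, and coloured symbols medians when very low replicate 1, 2 or 3 is left out. The median of progesterone-associated genes is -1.01 and lies between -1.70 and -0.71 in these 3 fits, though at -0.32 without low replicate 3, which is not drawn, while that of cytokines and chemokines is 0.17 and reaches -1.61 without replicate 2.

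Most genes of 4 immune lists were highest in very low replicate 2. Of 32 cytokines and chemokines 21 had their highest value of the 6 libraries there, as did 22 of 28 genes of innate sensing and the acute phase, 16 of 23 interferon-stimulated genes and 12 of 18 genes of antigen processing, against 25.9% of all tested genes. The median log2 fold change of cytokines and chemokines was 0.17 with all libraries and -1.61 without very low replicate 2, and that of innate sensing and acute phase genes 0.29 and -1.42. IL1B, a central inflammatory cytokine, had 0.53, 133 and 4.03 CPM in the very low libraries, against 8.83, 104 and 7.38 CPM in the low libraries. LTF, the iron-binding antimicrobial protein lactoferrin, had 116, 15745 and 547 CPM in the 3 very low libraries and 4556, 2906 and 2595 CPM in the 3 low libraries. The tracheal antimicrobial peptide TAP had 4.6, 1701 and 19.4 CPM in the very low class, against 2857, 276 and 1297 CPM in the low class. In each of these genes very low replicates 1 and 3 lay below all 3 low libraries, and in IL1B and LTF replicate 2 lay above them. S100A12, the neutrophil marker with the smallest p, showed the same order at 72.5, 2262 and 41.5 CPM in the very low libraries, against 310.4, 366 and 565 CPM in the low libraries (log2 fold change 0.94, and -2.89 without very low replicate 2).

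At an unadjusted p under 0.05 the immune lists held 3 higher and 2 lower members in all. CCL21, a chemokine of lymphatic endothelium, had 95.6, 0 and 0.13 CPM in the very low libraries, against 0.132, 0 and 0 CPM in the low libraries. Among these libraries very low replicate 1 alone was above 1 CPM, whereas the high and very high libraries ran from 3.83 to 34.1 CPM. The related CCL19 had 1.06, 6.2 and 2.99 CPM in the 3 very low libraries and 92.1, 0.896 and 219.5 CPM in the 3 low libraries (log2 fold change -4.97), high in low replicates 1 and 3. The median log2 fold change of 19 complement genes was 0.14. IFIT5, an interferon-induced RNA-binding protein, had 146, 69.4 and 87.1 CPM in the 3 very low libraries and 48, 64.5 and 66.9 CPM in the 3 low libraries, without overlap (log2 fold change 0.75, SE 0.25, edgeR adjusted p = 0.329), although its locus overlaps the tested gene LIPA. The median of interferon-stimulated genes was 0.03. Among antigen processing genes, with a median of -0.03, the immunoproteasome subunit PSMB8 had 152, 448 and 245 CPM in the very low libraries, against 462, 224 and 577 CPM in the low libraries. PSMB8 had a log2 fold change of -0.58 (SE 0.50, edgeR adjusted p = 0.669). The viral RNA sensor TLR3 had 51.4, 26.1 and 24.6 CPM in the very low class, against 23.7, 17.5 and 28.2 CPM in the low class. For TLR3 edgeR gave a log2 fold change of 0.56 (SE 0.33, adjusted p = 0.54). In the leukocyte lists the genes with the smallest p were the integrin ITGAM (13.4, 21.9 and 8.19 CPM in the very low and 7.78, 3.45 and 9.99 CPM in the low libraries), the NK cell receptor KLRK1 (3.71, 10.3 and 3.38 CPM in the very low and 3.56, 1.54 and 2.61 CPM in the low libraries) and the B cell kinase BLK (1.24, 6.97 and 5.98 CPM in the very low and 22.3, 3.71 and 14 CPM in the low libraries), with edgeR adjusted p of 0.46, 0.518 and 0.478.

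Immediate early genes, which answer stimuli and handling within minutes, set a low library apart. Of 19 tested members 14 were highest in low replicate 2, against 11.9% of all tested genes. FOS, a subunit of the AP-1 transcription factor, had 14.3, 315 and 756 CPM in the very low libraries, against 33.6, 3379 and 61.9 CPM in the low libraries, and EGR1, an early growth response factor, had 11, 113 and 305 CPM in the very low class, against 14.5, 1693 and 11.1 CPM in the low class. The median log2 fold change of the list was -0.98, but its score difference was -0.13 and became 1.08 without low replicate 2. FOSL2, another AP-1 subunit, had 69.8, 132 and 32 CPM in the 3 very low libraries and 12.5, 44.3 and 15.1 CPM in the 3 low libraries. In FOSL2 the log2 fold change was 1.70 (SE 0.55, edgeR adjusted p = 0.316). Of 17 heat shock genes none had an unadjusted p under 0.05 and the median was 0.08. BAG3, a co-chaperone of HSP70, had 113, 117 and 96.5 CPM in the very low libraries, against 149, 160.2 and 168 CPM in the low libraries, without overlap (log2 fold change -0.55, SE 0.27, edgeR adjusted p = 0.463).

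Glycolysis and hypoxia genes had mostly small positive log2 fold changes. Of 26 tested members 24 had a positive log2 fold change, 4 were higher and 1 lower at an unadjusted p under 0.05, and the median was 0.36, beside 6048 positive of 10959 tested genes. Of these 26 genes 15 were highest in very low replicate 1, the library rich in smooth muscle markers, against 27.2% of all tested genes. The median was 0.26 without that library. The pyruvate kinase PKM had 1154, 906 and 835 CPM in the very low libraries, against 475, 465 and 787 CPM in the low libraries, and the hexokinase HK1 had 166, 108 and 89.3 CPM in the very low class, against 61.8, 87 and 75.5 CPM in the low class, both without overlap (log2 fold changes 0.75 and 0.69). The lower member was ANKRD37, a target of hypoxia-inducible factor, at 3.71, 5.68 and 3.51 CPM in the 3 very low libraries and 22.9, 14.2 and 5.07 CPM in the 3 low libraries. ANKRD37 had a log2 fold change of -1.72 (SE 0.50, edgeR adjusted p = 0.30). Cell cycle genes held 0 higher and 1 lower of 32 tested members, with a median of -0.17. CCNB1, the mitotic cyclin B, had 2.3, 8.52 and 58.9 CPM in the very low libraries, against 258, 248 and 68.9 CPM in the low libraries. For CCNB1 edgeR gave a log2 fold change of -3.02 (SE 0.95, adjusted p = 0.316). Its level in very low replicate 3 was near that of low replicate 3, and no other member of the 32 had an unadjusted p under 0.05.

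The epithelial, glandular, ciliated, stromal and endothelial lists held few members past that level. Smooth muscle had 13 of 15 members higher at an unadjusted p under 0.05, the median log2 fold change was 4.08, and it was 0.32 without very low replicate 1. MYH11 had a log2 fold change of 7.87 (edgeR adjusted p = 0.289), and its locus overlaps the tested gene NDE1. The epithelial list had 0 of 14 members past it in either direction, a median of 0.12 and a score difference of -0.77, and in its member with the smallest p, the tight junction protein CLDN7, levels were 12.5, 445 and 332 CPM in the very low libraries, against 892, 928 and 270.1 CPM in the low libraries. In CLDN7 the log2 fold change was -1.41 (SE 0.89, edgeR adjusted p = 0.56). Glandular markers had 1 of 9 lower, SERPINA14, and ciliated cell markers had 0 of 9, with medians of 0.38 and -1.11 and score differences of -1.56 and -1.42. TPPP3, a tubulin-binding protein of ciliated cells, had 250.4, 143 and 327 CPM in the 3 very low libraries and 264, 469 and 611 CPM in the 3 low libraries (log2 fold change -0.90, SE 0.42, edgeR adjusted p = 0.438), and its locus overlaps the tested gene LRRC36. Stromal fibroblast markers had 0 of 11 and endothelial markers 1 of 12 lower, with medians of 0.22 and -0.66. The endothelial one was the sialomucin EMCN, at 24, 38.2 and 63.6 CPM in the very low class, against 58.1, 93.5 and 84.8 CPM in the low class (log2 fold change -0.91, SE 0.33, edgeR adjusted p = 0.354). No neutrophil, macrophage, T, NK, B or plasma cell marker had an unadjusted p under 0.05, and the medians were 0.94 for neutrophil, -0.06 for macrophage and dendritic cell, -0.18 for T and NK cell and -1.19 for B and plasma cell lists. Without very low replicate 2 the neutrophil median was -3.29 and the glandular one -2.95. Leaving out 1 of the 6 libraries changed the sign of the median in 20 of 29 lists. The exceptions were smooth muscle, ciliated cells, endothelium, B and plasma cells, steroid receptors, progesterone-associated and estrogen-associated genes, collagens and glycolysis. The median log2 fold change and the score difference also had opposite signs in macrophage and dendritic cell (-0.065 and 0.29), neutrophil (0.94 and -0.87), steroid receptors and partners (0.088 and -0.066), prostaglandin and oxytocin pathway (0.12 and -0.18), IGF and growth factor axis (0.24 and -0.22), glucose and amino acid transporters (0.045 and -0.27), WNT and HOX implantation regulators (0.36 and -0.17), lipid and sterol metabolism (0.069 and -0.078), interferon-stimulated genes (0.035 and -0.19), cytokines and chemokines (0.17 and -0.48), innate sensing and acute phase (0.29 and -0.91) and complement (0.14 and -0.00017).

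Genes that marked a single very low library completed the picture of each sample. In very low replicate 1, 101 of 4035 genes with at least 50 CPM were more than 4 times any of the other 5 libraries and 47 more than 10 times. The 6 with the highest ratio included CHRDL2, an antagonist of bone morphogenetic proteins (432 CPM against at most 0.434 CPM in the other 5 libraries), and MYH11. The smooth muscle actin ACTG2 (9236 against at most 34.6 CPM) and PDLIM3, a protein of the muscle cytoskeleton (2495 against at most 9.1 CPM), followed. KCNMB1, a potassium channel subunit of smooth muscle (159 against at most 0.39 CPM), and CCL21 completed them. In the high and very high libraries CHRDL2 ran from 27.3 to 162 CPM, MYH11 from 221 to 769 and ACTG2 from 1603 to 5087. PDLIM3 ran there from 486 to 1122 CPM, KCNMB1 from 23.6 to 94.7 and CCL21 from 3.83 to 34.1. These genes were thus low only in the other 5 very low and low libraries. In very low replicate 2 the counts were 53 and 2 of 4266 genes. Its leading genes were CLCA1, a secreted modulator of chloride channels in mucous cells (442 against at most 30.1 CPM), the tryptophan-degrading enzyme IDO1 (632 against at most 60.4 CPM) and the glucose transporter SLC5A1 (150.2 against at most 16 CPM). They were followed by the serotonin receptor HTR4, the serpin SERPINB7 and the chloride channel ANO1 at 96.5, 58.9 and 69.2 CPM. The locus of CLCA1 overlaps the tested gene ODF2L.

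Very low replicate 3 had the fewest such genes of its class, 3 and 1 of 4129. They were the neuropeptide NPY (104 against at most 6.08 CPM), the collagen COL26A1 (173 against at most 29.3 CPM) and MSTN. Next came LRRC17, the membrane metalloproteinase MMP14, whose locus overlaps the tested gene RBM23, and the WNT ligand WNT5A, at 195, 397 and 129 CPM and ratios of 2.67, 2.57 and 2.55. In the 3 low libraries the counts over 4 times were 5, 10 and 8 genes. Very low replicate 3 thus resembled a low library in this measure, and it was also the one in which TDGF1, IHH and CCNB1 came nearest to the low range.

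**Figure D5:**
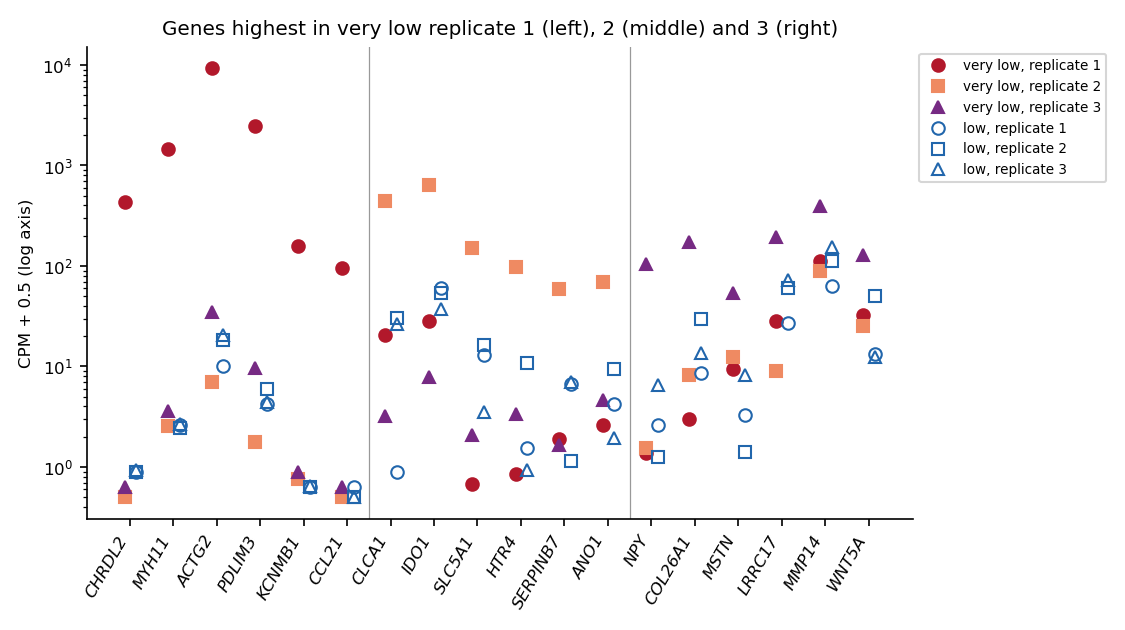
CPM plus 0.5 on a log axis for the 6 genes with the highest ratio to the other 5 libraries in each very low library. Filled symbols are very low replicates 1 to 3 and open blue symbols low replicates 1 to 3. The left panel, for replicate 1, shows that library far above the other 5 libraries, for example 1455 against at most 3.12 CPM for MYH11. The right panel, for replicate 3, shows ratios of 2.55 to 15.9. The high and very high libraries, in which MYH11 ran from 221 to 769 CPM, are not drawn.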

How the data were processed

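The samples were grouped by the progesterone class in the labels. The authors deposited raw counts, whole numbers of reads per gene symbol in 1 column per sample title, neither scaled nor pooled. Trizol extraction, oligo-dT capture and stranded, paired libraries sequenced as 1 pool are stated per the labels. Trimmomatic 0.32, FastQC 0.11.2 and the builds bosTau8 and UMD3.1 appear in the submitters' processing notes. Not given in the sources used here are the aligner, the counting program and its strand setting, so overlapping genes may share reads.

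Of 13930 symbols, 10959 passed filterByExpr (count minimum 10). edgeR 4.0.16 in R 4.3.3 with TMM scaling fitted the 4 class means to all 12 libraries (8 residual degrees of freedom, biological coefficient of variation 44.0%), and very low was set against low with Benjamini-Hochberg adjustment at 0.05. The SE given with a log2 fold change is its absolute value divided by the square root of the F statistic. It is thus derived from the test rather than reported by edgeR, and is rough for genes near 0 counts in a class. Library totals of 3772564 to 8379489 set the counting precision. DESeq2 1.42.0, limma-voom (limma 3.58.1), other filters and scaling, thinning, blocks, covariates and left-out libraries were alternatives. DESeq2 gave no adjusted p for 511 genes. The test was checked on simulated counts. Chi-square tests of every replicate pair in the very low and low classes exceeded counting noise (74.7 to 284 per degree of freedom), so no pair is a repeat of 1 library.

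Genes were named by rule: PGR, ESR1 and OXTR; the 8 smallest p per direction among genes whose mean log2 CPM reached 1, since fewer than 10 genes passed; in each list with 5 or more tested members that with the smallest p; the 6 genes most particular to each very low library among those with 50 CPM; and the first 2 markers of each cell type. Other genes were named after their values were seen. A few genes that the rule names are not reported here. The 33 lists, the classes compared and this rule were chosen with earlier results of these data known. Overlapping loci come from a RefSeq gene table (ARS-UCD2.0), which matched 13492 symbols by name and 345 by synonym.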

Additional observations from a re-analysis of the deposited data

How the results depend on the processing

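The count of genes past the threshold was 0 in the main fit and under DESeq2 size factors, limma-voom, no filter, a stricter filter, a fit of the 6 libraries only (450 with an unadjusted p under 0.05), thinning to the smallest total, a replicate block and smooth muscle or smooth muscle and epithelial scores as covariates. It was 293 with DESeq2 and 0 to 16 when 1 of the 12 libraries was left out. With very low replicates 1 and 2 left out together, a fit added after seeing the data in which the lone library is assumed to vary like the other classes, it was 0 (802 with an unadjusted p under 0.05).

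Deviations of same-numbered very low and low libraries from their class means correlated at -0.17, 0.29 and 0.06 over genes. Those with different numbers ran from -0.39 to 0.34. With means of only 3 libraries per class, this check cannot show whether the samples were paired. With the replicate block 0 genes passed (1008 with an unadjusted p under 0.05), and it reversed no named gene.

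Of 68 genes with a test, 61 kept their direction in each of up to 23 alternatives. The log2 fold changes that reversed were those of S100A12 under limma-voom (-0.96), of MFAP4 (-0.0659) and PTGER3 (-1.28) with the smooth muscle score, of BLK (0.21), PSMB8 (0.58), PTGER3 (-1.34) and CCL19 (3.13) with both scores, and of ESR1 (-0.13) and S100A12 (-3.32) without very low replicates 1 and 2. With single libraries left out PTGER3 ran from -0.58 to 6.73 and S100A12 from -2.89 to 1.49.

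Of 29 list score differences 8 kept their sign throughout. The complement difference reversed to 0.00228 after thinning. The others reversed only with 1 library left out, where the ranges were -0.49 to 0.0027 for IGF and growth factor axis, -0.59 to 0.14 for T and NK cell, -0.61 to 0.13 for WNT and HOX implantation regulators, -0.61 to 0.15 for antigen processing and MHC, -0.74 to 0.11 for cell cycle, -0.20 to 0.92 for collagens and basement membrane, -0.48 to 0.43 for complement, -1.43 to 0.25 for cytokines and chemokines, -1.77 to 0.61 for epithelial, -0.27 to 0.28 for estrogen-associated endometrial genes, -0.84 to 0.23 for glucose and amino acid transporters, -0.023 to 0.38 for heat shock, -0.86 to 1.08 for immediate early, -0.70 to 0.23 for interferon-stimulated genes, -0.30 to 0.062 for lipid and sterol metabolism, -0.17 to 0.73 for macrophage and dendritic cell, -0.71 to 0.19 for matrix proteases and inhibitors, -2.82 to 0.22 for neutrophil, -0.12 to 0.053 for prostaglandin and oxytocin pathway, -0.21 to 0.056 for steroid receptors and partners and -0.44 to 0.78 for stromal fibroblast. The cause was not tested.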
